A study of Mus musculus with 15 samples.

Results

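Complement genes and clusterin were followed in lymphatic endothelial cells, the lining cells of lymph vessels and sinuses, of mice that carried a transplanted melanoma. The 6 genes described are C3, C4b, Serping1, Cd55, Cd59a and Clu, out of 21839 genes in the count table, and all 6 passed the filter on low counts that left 13887 genes. They were chosen by name with their levels in these samples known, so their values are given as a description, without p-values. RNA was sequenced from cells of the tumor (Tumor), of the lymph node that drains it (TdLN) and of a lymph node that does not (NdLN), with 5 libraries in each group. All mice were of strain C57bl/6 and 10 weeks old, and the melanoma line is described as lymphangiogenic, that is, able to make lymph vessels grow. The NdLN cells are described as coming from tumor-bearing mice as well, so no group stands for a mouse without a tumor. No genetic change or drug is given in the labels for any group, and they do not say whether a library came from 1 animal or from a pool, so spreads and p-values measure differences between libraries, which may be technical.

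Complement is a cascade of plasma proteins that tags surfaces for uptake, releases small inflammatory peptides and can assemble a pore in a membrane. The classical and lectin routes cut C4 and C2 to build an enzyme that cuts C3, and the alternative route amplifies that step through factor B. Host cells hold the cascade back: C1 inhibitor, encoded by Serping1, blocks the first proteases, CD55 speeds the decay of the enzymes that cut C3, CD59 blocks the pore, and clusterin, encoded by Clu, is a secreted chaperone that also binds the terminal complex. The liver makes most of the plasma proteins, but endothelial cells, fibroblasts and macrophages transcribe many of these genes.

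Total counts were 23830337 to 34577494 in Tumor, 32134127 to 37043976 in TdLN and 31894931 to 37437282 in NdLN libraries. Levels are given as CPM, read counts relative to the library size, which is the library total times a factor for its composition. Cells had been sorted by the labels as positive for CD31 and gp38 and negative for CD45. Pecam1, the gene of CD31, was at 275 ± 86.6 CPM in Tumor, against 1179 ± 87.1 CPM in TdLN and 1596 ± 84.6 CPM in NdLN libraries (SD, n = 5), without overlap. Pdpn, the gene of gp38, was at 116 ± 46.4 CPM in Tumor, 120 ± 15.4 CPM in TdLN and 124 ± 20.7 CPM in NdLN libraries (SD, n = 5), and Ptprc, the gene of CD45, averaged 1.68 CPM in Tumor, 1.10 CPM in TdLN and 5.42 CPM in NdLN libraries. Prox1, whose product keeps lymphatic endothelial cells in their identity, was at 105 ± 22.7 CPM in Tumor, 538 ± 74.9 CPM in TdLN and 766 ± 52.9 CPM in NdLN libraries. Of the 8 lymphatic markers, 2 rose and 3 fell between Tumor and TdLN, and 3 rose and 2 fell between Tumor and NdLN. Ccl21a, the gene of a chemokine of lymphatic endothelium with near-identical gene copies that make its counts uncertain, rose to 1226 ± 367 CPM in Tumor, against 135 ± 71.0 CPM in TdLN and 105 ± 33.7 CPM in NdLN libraries, and Reln rose in both comparisons as well. RNA of other cells was present in the Tumor libraries, where 8 pigment cell genes summed to 19523 to 32481 CPM, against 5.60 to 23.9 CPM in TdLN and 12.2 to 31.4 CPM in NdLN libraries. Summed fibroblast and reticular cell markers (10 genes) ran from 1369 to 10325 CPM in Tumor, 116 to 357 CPM in TdLN and 242 to 553 CPM in NdLN libraries. Summed blood endothelial markers (8 genes) were lower in the tumor, at 450 to 1057 CPM in Tumor, against 2955 to 7364 CPM in TdLN and 2978 to 6061 CPM in NdLN libraries. Of the 8, 5 fell and 1 rose against TdLN, and 7 fell and 1 rose against NdLN. The 1 that rose, Cd34, averaged 188 CPM in Tumor, 61.9 CPM in TdLN and 67.7 CPM in NdLN libraries. Of those that fell, Glycam1, a gene of high endothelial venules, averaged 1.59 CPM in Tumor, 2022 CPM in TdLN and 1453 CPM in NdLN libraries. Of the 4 tested pericyte and smooth muscle markers, 2 fell and 1 rose in both tumor comparisons. Rgs5, which fell, averaged 1.2 CPM in Tumor, 118 CPM in TdLN and 68.0 CPM in NdLN libraries. Acta2, which rose, averaged 42.4 CPM in Tumor, 8.55 CPM in TdLN and 12.8 CPM in NdLN libraries. The blood endothelial sum, Glycam1 and Rgs5 moved in the same direction as C3, Cd55, Cd59a and Clu, while Cd34 and Acta2 moved the other way. The part of such cells in those levels was not tested. In such bulk samples, fewer cells of a type and less RNA per cell cannot be told apart.

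Of the 2 cascade components among the members, C3 was low and C4b high in the tumor. C3, the central component, lies on chromosome 17 (minus strand) between 57203970 and 57228136 (GRCm38, ENSMUSG00000024164). It had 22.6, 83.7, 86.8, 40.5 and 206 CPM in Tumor 1 to 5, against 1569, 1438, 2733, 2160 and 2317 CPM in TdLN 1 to 5 and 1375, 1186, 2449, 2476 and 2978 CPM in NdLN 1 to 5. Every Tumor library lay below every node library, while the node groups overlapped throughout. The log2 fold change was -4.54 ± 0.52 (SE) for Tumor against TdLN and -4.57 ± 0.52 for Tumor against NdLN. Without Tumor 5, the highest of its group, these values were -5.13 and -5.16.

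C4b, a component that the classical and lectin routes share, lies on chromosome 17 (minus strand) between 34728380 and 34743882 (ENSMUSG00000073418). Its level was 37.9, 107, 85.9, 93.8 and 330 CPM in Tumor 1 to 5, against 10.6, 7.42, 27.2, 23.5 and 15.1 CPM in TdLN 1 to 5 and 8.35, 21.5, 19.8, 43.1 and 41.3 CPM in NdLN 1 to 5. All Tumor libraries lay above all TdLN libraries, but Tumor 1 was below NdLN 4 and NdLN 5. The log2 fold change was 2.97 ± 0.58 for Tumor against TdLN and 2.29 ± 0.57 for Tumor against NdLN, and it was 2.27 and 1.60 without Tumor 5. C4b has a close copy, C4a, which was not analysed here. Of the distinct windows of 50 bases, the read length, in the C4b transcripts of GENCODE M21, 34.6% also occur in transcripts of C4a, so C4b counts can hold reads of C4a or lack reads that fit either gene.

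Serping1, on chromosome 2 (minus strand) between 84765387 and 84775444 (ENSMUSG00000023224), did not separate any of the 3 groups. It had 280, 250, 285, 214 and 548 CPM in Tumor 1 to 5, against 279, 413, 563, 304 and 296 CPM in TdLN 1 to 5 and 261, 329, 263, 300 and 281 CPM in NdLN 1 to 5. All 3 groups overlapped, with Tumor 5 and TdLN 3 above the rest. The log2 fold change was -0.23 ± 0.24 for Tumor against TdLN and 0.14 ± 0.24 for Tumor against NdLN. Without Tumor 5 these values were -0.53 and -0.16, and the first then passed the adjusted threshold in edgeR. Since Tumor 5 held the highest Tumor value of Serping1, nothing is read from that pass.

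The regulators on the cell membrane were low in the tumor. Cd55, which encodes decay-accelerating factor, lies on chromosome 1 (minus strand) between 130439027 and 130462744 (ENSMUSG00000026399). Its level was 16.7, 12.1, 16.8, 18.9 and 16.6 CPM in Tumor 1 to 5, against 1448, 1492, 1743, 2048 and 1783 CPM in TdLN 1 to 5 and 1511, 1199, 2235, 1925 and 2289 CPM in NdLN 1 to 5. No Tumor library came near a node library, and the mean was 105-fold lower in Tumor than in TdLN libraries and 113-fold lower than in NdLN libraries. The log2 fold changes, -6.71 ± 0.22 and -6.82 ± 0.22, were the largest decreases among the 6 genes. The close copy Cd55b shares 8% of the windows of Cd55, but it averaged 0.017 CPM in Tumor, 0.611 CPM in TdLN and 0.891 CPM in NdLN libraries, far below Cd55 itself.

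Cd59a, which encodes an inhibitor of the membrane pore, lies on chromosome 2 (plus strand) between 104095801 and 104115354 (ENSMUSG00000032679). It had 17.0, 9.94, 9.91, 13.4 and 12.8 CPM in Tumor 1 to 5, against 54.0, 103, 94.7, 90.9 and 69.4 CPM in TdLN 1 to 5 and 101, 117, 103, 103 and 96.4 CPM in NdLN 1 to 5. Tumor libraries lay below all node libraries, and the log2 fold change was -2.71 ± 0.19 for Tumor against TdLN and -3.04 ± 0.19 for Tumor against NdLN. Its copy Cd59b, which shares 3.87% of the windows, stayed at a mean of 0.680 CPM in Tumor, 0.435 CPM in TdLN and 0.355 CPM in NdLN libraries.

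Clu lies on chromosome 14 (plus strand) between 65968483 and 65981547 (ENSMUSG00000022037). Its level was 227, 162, 133, 162 and 198 CPM in Tumor 1 to 5, against 10213, 12237, 15987, 15731 and 13308 CPM in TdLN 1 to 5 and 8319, 6848, 13522, 10935 and 12420 CPM in NdLN 1 to 5. In the Tumor libraries Clu took 0.0146% to 0.0233% of all counts and ranked between 859 and 1543 among all genes. It took 1.01% to 1.64% of the counts in TdLN and 0.631% to 1.29% in NdLN libraries, and ranked 1 in 4 of the 5 TdLN and 3 of the 5 NdLN libraries. The log2 fold change was -6.26 ± 0.25 for Tumor against TdLN, a 76.6-fold lower mean, and -5.88 ± 0.24 for Tumor against NdLN, a 59.1-fold lower mean. For Clu, C3 and Serping1, no window of 50 bases occurs in transcripts of another gene.

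**Figure D1:**
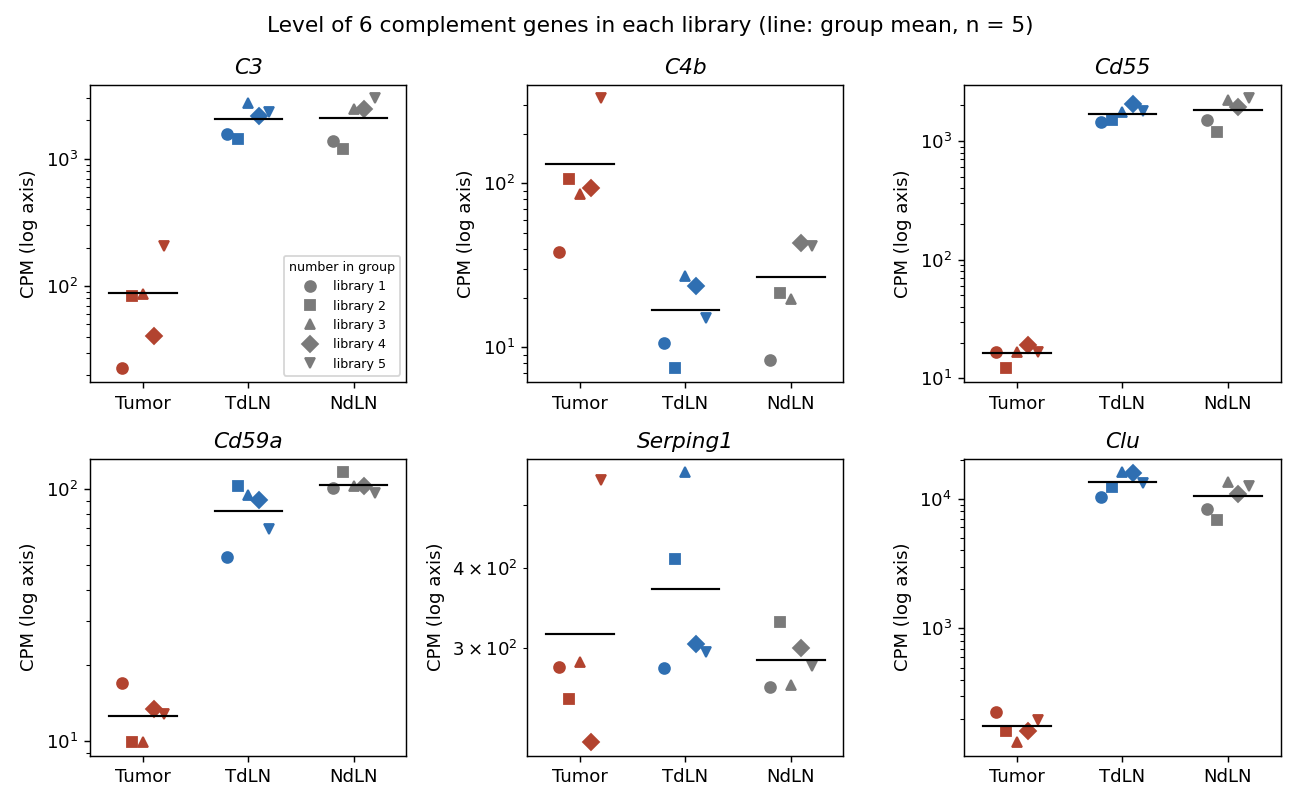
Level of each of the 6 genes in CPM on a log axis, by group, with 1 point per library, a symbol for the library number and a line at the group mean. C3, Cd55, Cd59a and Clu in the Tumor libraries lie below every node library, C4b lies above every TdLN library, and Serping1 overlaps in all groups.

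In edgeR's quasi-likelihood fit over all 13887 genes, 5 of the 6 members had an adjusted p under 0.05 between Tumor and TdLN (4 lower, 1 higher), where 62% of all tested genes did. Between Tumor and NdLN it was 5 of 6 as well, where 66.5% of all tested genes did. Libraries did not overlap for the 4 lower members in Tumor against TdLN, a pattern that 22.5% of all tested genes showed in that direction (24.1% in the direction of C4b), nor for the same 4 in Tumor against NdLN, where 27% did. Since the members were chosen with these contrasts known, nothing is read from those counts. The comparisons with TdLN and with NdLN share the Tumor libraries, so they are not independent of each other.

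The letters around the annotated starts of Cd55, Cd59a and C3, the 3 members with an entry among the RefSeq promoters (GRCm38.p6), are shown because these genes were lower together in the tumor. Each window holds 250 bases before the start and 50 after it. Capitals mark matches on either strand to the GC box GGGCGG or the TATA box TATAAA. Clu, C4b and Serping1 had no entry.
Cd55, minus strand, chr1:130462695-130462994: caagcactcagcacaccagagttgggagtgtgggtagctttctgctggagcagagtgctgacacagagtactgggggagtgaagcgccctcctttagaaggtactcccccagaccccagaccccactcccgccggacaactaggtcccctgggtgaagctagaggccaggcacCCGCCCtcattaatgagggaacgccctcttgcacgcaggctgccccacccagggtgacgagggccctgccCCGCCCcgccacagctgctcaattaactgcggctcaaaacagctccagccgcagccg
Cd59a, plus strand, chr2:104095551-104095850: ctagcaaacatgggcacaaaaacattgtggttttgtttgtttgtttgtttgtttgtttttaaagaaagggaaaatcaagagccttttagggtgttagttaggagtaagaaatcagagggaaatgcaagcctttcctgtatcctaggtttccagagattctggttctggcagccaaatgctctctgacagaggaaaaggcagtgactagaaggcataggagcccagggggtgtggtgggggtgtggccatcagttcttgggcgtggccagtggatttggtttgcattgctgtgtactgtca
C3, minus strand, chr17:57228087-57228386: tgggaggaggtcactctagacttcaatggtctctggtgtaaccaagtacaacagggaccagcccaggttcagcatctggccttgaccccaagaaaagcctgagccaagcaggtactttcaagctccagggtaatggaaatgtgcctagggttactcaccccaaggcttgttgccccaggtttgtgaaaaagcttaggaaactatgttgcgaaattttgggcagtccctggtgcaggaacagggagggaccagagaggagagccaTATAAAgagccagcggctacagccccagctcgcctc

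The Cd55 window holds GGGCGG 2 times, read on the opposite strand as CCGCCC, at positions -77 and -7 relative to the annotated start, and no TATAAA. The C3 window holds TATAAA once, beginning 14 bases after the annotated first base, and no GGGCGG. In the Cd59a window neither was found. Of all 32851 promoter windows of this length, 35.7% hold GGGCGG and 13.6% hold TATAAA. TTCNNNGAA, the core of STAT binding sites, and GAANNTTC, the core of heat shock elements, were not found in any of the 3 windows on either strand, against 8.3% and 7.86% of all windows. The letters TATAAA and GGGCGG were chosen after the members' values were seen, and all of these matches are descriptions of letters, not of binding.

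Levels of different genes were compared per kilobase of exon. In Tumor libraries the order of mean levels was Serping1 (136 CPM per kb), Clu (51.3), C4b (23.0), C3 (17.1), Cd59a (6.97) and Cd55 (3.34). In TdLN libraries it was Clu (3930 CPM per kb), C3 (397), Cd55 (351), Serping1 (160), Cd59a (45.5) and C4b (2.95), and the NdLN order was the same, at 3030, 407, 377, 123, 57.4 and 4.71 CPM per kb. Thus Cd55 took the last place in the tumor and place 3 in the nodes, and C4b took place 3 in the tumor and the last place in the nodes. In the Tumor group Clu overlapped with C4b, C4b with C3 and C3 with Cd59a, each pair in the stated order in 4 of 5 libraries. C3 and Cd55 overlapped in both node groups, with C3 above Cd55 in 3 of 5 libraries each. The other neighbours in each order did not overlap.

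**Figure D2:**
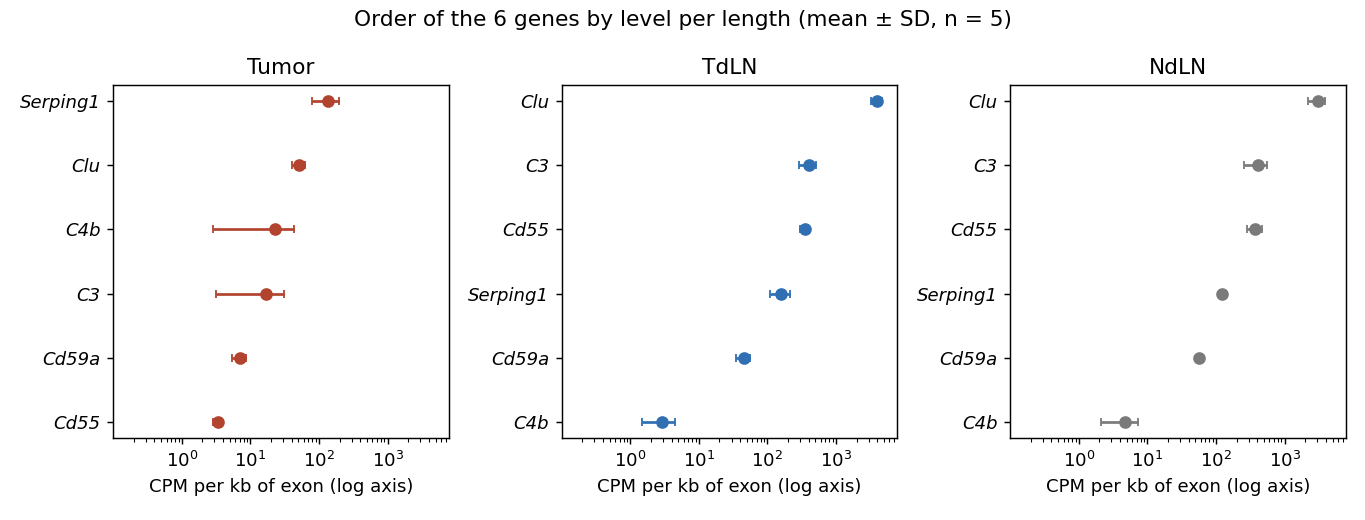
Mean level of the 6 genes in CPM per kilobase of exon on a log axis, ± SD over 5 libraries, with the genes of each group sorted by level. Serping1 leads in Tumor libraries at 136 CPM per kb, while Clu leads in TdLN libraries at 3930 and in NdLN libraries at 3030 CPM per kb.

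Each member was also divided within its library by Prox1, which was 5.15-fold lower in Tumor than in TdLN libraries, the largest decrease among the 8 lymphatic markers. This measure was chosen after the values were seen, and it depends on the divisor. Cd55 was at 0.162 ± 0.0469 of the Prox1 level in Tumor, against 3.19 ± 0.490 in TdLN and 2.4 ± 0.588 in NdLN libraries (SD, n = 5), so it was lower by 19.7-fold and 14.8-fold on this measure too, without overlap. Clu was at 1.83 ± 0.822 times Prox1 in Tumor, against 25.2 ± 4.15 in TdLN and 13.6 ± 3.43 in NdLN libraries, again without overlap. The ratio of C3 was 0.866 ± 0.804 in Tumor, against 3.75 ± 0.560 in TdLN and 2.73 ± 0.959 in NdLN libraries, and here Tumor and NdLN overlapped. Cd59a behaved otherwise, at 0.131 ± 0.0617 in Tumor, 0.156 ± 0.0511 in TdLN and 0.136 ± 0.0106 in NdLN libraries, ranges that overlapped in all groups. Serping1 was at 3.22 ± 1.75 times Prox1 in Tumor, against 0.693 ± 0.209 in TdLN and 0.374 ± 0.0272 in NdLN libraries, and C4b at 1.32 ± 1.31 in Tumor, against 0.0304 ± 0.0132 in TdLN and 0.0345 ± 0.0188 in NdLN libraries. Tumor libraries lay above all node libraries for both of these genes. With each of the 8 lymphatic markers as divisor in turn, Cd55 and Clu were below without overlap with all 8, in Tumor against TdLN and against NdLN, and C3 with 8 and 6. Cd59a was below with 5 of the 8 against TdLN and with 6 against NdLN, and it overlapped with the others, Prox1 and Mmrn1 among them. C4b was above with 6 of the 8 against TdLN and with 5 against NdLN. Serping1 was above with 2 of the 8 (Prox1 and Mmrn1), below with 1 (Ccl21a) and overlapped with 5 in both comparisons, so its separation is not seen with most divisors.

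**Figure D3:**
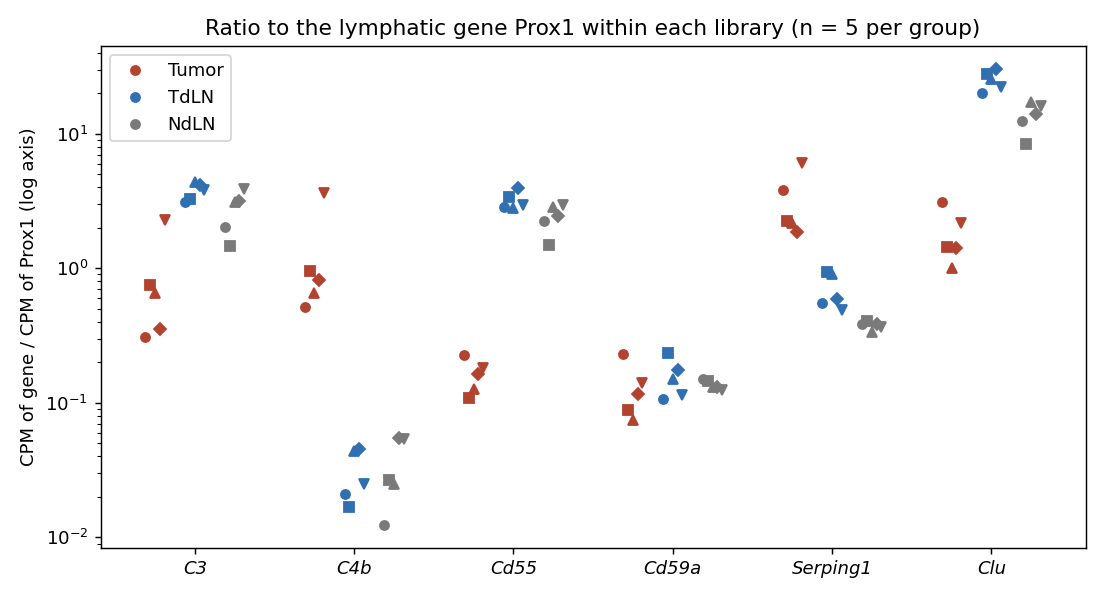
CPM of each gene divided by CPM of Prox1 in the same library, on a log axis, with 1 point per library and 5 libraries per group. Cd55 and Clu are lower in Tumor than in every node library, Cd59a overlaps, and C4b and Serping1 are higher in Tumor than in every node library, for Serping1 with 2 of the 8 lymphatic markers as divisor.

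Within the tumor, C3 and C4b differed most between libraries. The highest Tumor library exceeded the lowest by 9.10-fold for C3 and 8.72-fold for C4b, against 2.57-fold for Serping1, 1.71-fold for Cd59a, 1.70-fold for Clu and 1.57-fold for Cd55. Tumor 1 was the lowest and Tumor 5 the highest library for C3, for C4b and for the summed fibroblast markers. Those sums were 1369 CPM in Tumor 1, 2752 in Tumor 4, 4235 in Tumor 3, 6584 in Tumor 2 and 10325 in Tumor 5. In its group, Tumor 1 was also lowest for Pecam1 (133 CPM) and the lymphatic marker sum (3496 CPM), though not for Lyve1, Ccl21a and Reln. It had the smallest total count of the Tumor libraries (23830337) and their highest macrophage marker sum (156 CPM). None of the 10 fibroblast markers was at 0 in a Tumor library, and 9 of the 10 rose and 1 fell between Tumor and TdLN. Per 1000 CPM of these markers, C4b was at 16.3 to 34.1 CPM in Tumor, against 38.6 to 91.5 CPM in TdLN and 34.5 to 80.6 CPM in NdLN libraries. C4b was thus higher in the tumor in mean CPM and lower relative to the marker sum. This measure depends on the divisor: between TdLN and Tumor the mean of C4b rose 7.81-fold, that of Col1a1 58.4-fold and that of Dcn 2.43-fold. C3 was at 12.7 to 20.5 CPM per 1000 CPM of the markers in Tumor, against 6970 to 13500 CPM in TdLN and 3820 to 6800 CPM in NdLN libraries. The parts of fibroblast RNA, lymphatic RNA, macrophage RNA and depth in the levels of C3, C4b and Serping1 were not tested.

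**Figure D4:**
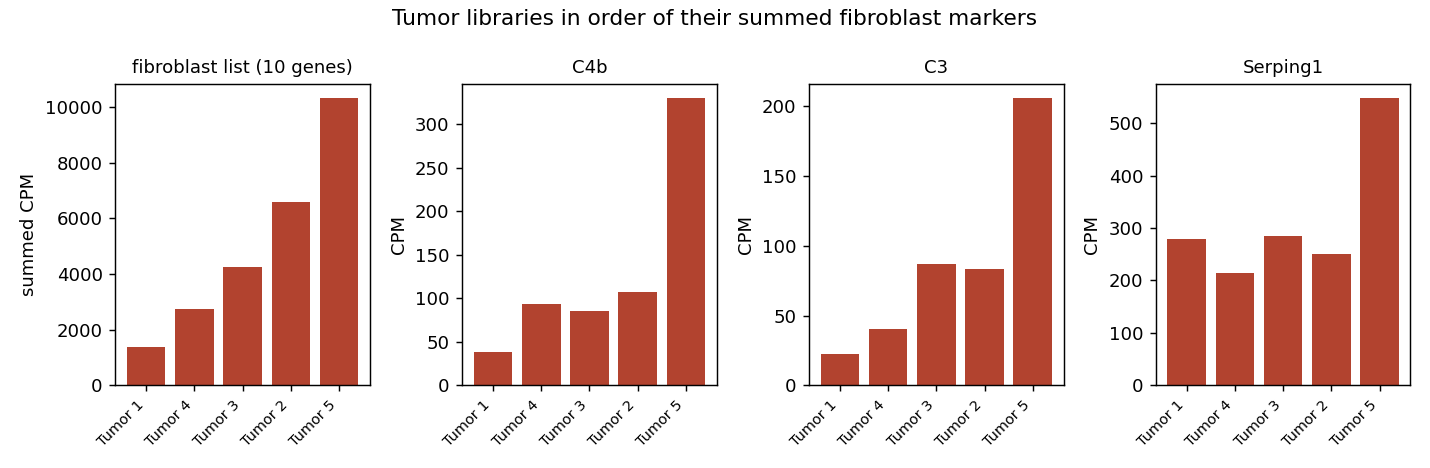
Summed CPM of 10 fibroblast and reticular cell markers, and CPM of C4b, C3 and Serping1, as bars for the 5 Tumor libraries sorted by the marker sum. Tumor 5 is highest in every panel, with 330 CPM of C4b, 206 CPM of C3 and 548 CPM of Serping1, and Tumor 1 is lowest for the markers, C4b and C3.

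Does the draining node differ from the non-draining node in these genes? The log2 fold changes of TdLN against NdLN were 0.37 ± 0.20 for Clu, 0.37 ± 0.24 for Serping1, -0.03 ± 0.45 for C3, -0.11 ± 0.17 for Cd55, -0.34 ± 0.18 for Cd59a and -0.68 ± 0.55 for C4b. The libraries of the 2 groups overlapped for each of the 6 genes. Since 7.83% of all tested genes showed no overlap, nothing particular to the members is read from that count. TdLN 3 was the highest TdLN library for C3, C4b, Serping1 and Clu. In its group it also had the highest sums of fibroblast (357 CPM), macrophage (41.4 CPM) and lymphatic endothelial markers (7071 CPM). The same held for pericyte and smooth muscle (183 CPM) and lymphocyte markers (6.56 CPM), while its blood endothelial sum was the lowest (2955 CPM). The part of these cells was not tested. Divided by Prox1, whose mean was lower in TdLN, Clu and Serping1 were each 1.85-fold higher in TdLN than in NdLN libraries, without overlap, but with 6 of the 8 lymphatic markers as divisor the 2 groups overlapped.

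Around the members, 46 other complement genes were listed by function, of which 31 were tested. Another 14 had too few counts, and C4a was not analysed here. Tumor against TdLN gave 15 that fell and 9 that rose, and the 31 genes had a median log2 fold change of -0.47, beside 30.1% of all tested genes that fell, 31.9% that rose and a median of 0.04 over all of them. For Tumor against NdLN it was again 15 and 9, at a median of -0.56, beside 32.5% of all tested genes that fell and 34% that rose. A gene that passes the filter only through the group where it is high had to differ, so these counts do not show that the list stands apart.

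Of the 3 genes of the alternative route, Cfb and Cfp fell in both tumor comparisons, and Cfd rose against TdLN. Cfd, the gene of the protease factor D, named after its values were seen, had 0, 13.8, 2.11, 2.10 and 0 CPM in Tumor 1 to 5, against 0 to 0.563 CPM in TdLN libraries (adjusted p = 0.0196). The groups overlapped, and it did not pass without Tumor 2. Cfb, the gene of factor B that forms the amplifying enzyme with C3, was at 84.5 ± 32.5 CPM in Tumor, against 4134 ± 470 CPM in TdLN and 3738 ± 902 CPM in NdLN libraries (SD, n = 5), with an edgeR log2 fold change of -5.61 ± 0.29 against TdLN (adjusted p = 3.77e-10). Cfp, the gene of properdin, which stabilises that enzyme, fell to 8.53 ± 3.21 CPM in Tumor, against 57.1 ± 8.91 CPM in TdLN libraries (-2.74 ± 0.27, adjusted p = 5.05e-07). Of the terminal genes 2 of 7 were tested. Hc, which encodes C5, fell to 0.196 ± 0.162 CPM in Tumor, against 29.6 ± 10.9 CPM in TdLN libraries (-7.18 ± 0.54). With 2 to 16 counts per Tumor library, Hc passed the filter only through the node libraries. It thus had to differ, and no p-value is given for it. C8g, at 4.70 ± 0.696 CPM in Tumor and 5.13 ± 1.86 CPM in TdLN libraries, did not pass.

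Of the 6 tested genes of the classical route, 3 rose and 2 fell in Tumor against TdLN. The 3 that rose encode the chains of C1q, which macrophages are known to make. C1qa was at 13.8 ± 3.24 CPM in Tumor and 1.24 ± 0.817 CPM in TdLN libraries, with an adjusted p of 0.000142. C1qb was at 27.1 ± 16.1 CPM in Tumor and 5.10 ± 2.66 CPM in TdLN libraries (adjusted p = 0.000929), and C1qc at 17.4 ± 7.16 CPM in Tumor and 1.28 ± 1.26 CPM in TdLN libraries (adjusted p = 9.23e-05). In the same libraries the 9 macrophage and monocyte markers summed to 61.8 to 156 CPM in Tumor and 14.7 to 41.4 CPM in TdLN libraries, and 6 of the 9 rose and 1 fell, and their part in the C1q levels was not tested. C2, which forms an enzyme with C4, fell to 229 ± 63.4 CPM in Tumor, against 705 ± 76.7 CPM in TdLN libraries (adjusted p = 1.8e-06). C1ra, a protease of C1, fell to 24.4 ± 14.4 CPM in Tumor, against 106 ± 17.5 CPM in TdLN libraries (adjusted p = 1.93e-05). Its partner C1s1 was at 31.5 ± 22.4 CPM in Tumor and 43.8 ± 14.3 CPM in TdLN libraries and did not pass, except without Tumor 5, when it fell.

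Of the 4 tested genes of other fluid-phase regulators, 2 fell and 1 rose in Tumor against TdLN, beside 30.1% and 31.9% of all tested genes. The 1 that rose, Cpn1, averaged 0.975 CPM in Tumor and 0 CPM in both node groups. It passed the filter only through the Tumor libraries and had to differ, so nothing is read from that count. Vtn, which encodes vitronectin, a plasma protein that binds the terminal complex, fell to 0.502 ± 0.372 CPM in Tumor, against 6.12 ± 1.65 CPM in TdLN libraries (-3.61 ± 0.53). Its 6 to 37 counts per Tumor library would not have passed the filter without the node libraries, so no p-value is given for it. Of the 7 other genes of membrane regulators, 5 fell and 0 rose, beside 30.1% of all tested genes that fell and 31.9% that rose. Cd46, Cd55b and Csmd1, which fell, averaged 0.0777, 0.017 and 0.141 CPM in Tumor, against 0.929, 0.611 and 1.07 CPM in TdLN libraries. These genes passed the filter only through the node libraries and had to differ, so nothing is read from that count. Cr1l, which encodes the rodent inhibitor Crry, fell to 75.6 ± 11.5 CPM in Tumor, against 222 ± 16.8 CPM in TdLN libraries (-1.56 ± 0.11, adjusted p = 7.14e-09). Thbd, the gene of thrombomodulin, an endothelial anticoagulant receptor that also dampens complement, fell to 30.2 ± 10.7 CPM in Tumor, against 660 ± 91.6 CPM in TdLN libraries (-4.45 ± 0.24, adjusted p = 7.32e-10). Susd4 was at 19.4 ± 9.07 CPM in Tumor and 12.9 ± 1.74 CPM in TdLN libraries and did not pass, except without Tumor 5, when it rose. For comparison, the log2 fold change of Prox1 was -2.36 ± 0.15 in the same contrast.

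Among the receptors, C5ar2, which encodes a second receptor for the peptide C5a, fell to 1.18 ± 0.758 CPM in Tumor, against 141 ± 20.1 CPM in TdLN libraries (-6.89 ± 0.34, adjusted p = 2.33e-10). Itgb2, the beta chain that leukocyte complement receptors share, rose to 30.5 ± 2.54 CPM in Tumor, against 5.30 ± 2.79 CPM in TdLN libraries (2.52 ± 0.41, adjusted p = 8.37e-05). The Tumor libraries also had the higher macrophage marker sums, while Ptprc averaged 1.68 CPM in Tumor and 1.1 CPM in TdLN libraries. The part of leukocyte RNA in the Itgb2 level was not tested. Of the 7 tested receptor genes 3 rose and 2 fell against TdLN, and 4 rose and 2 fell against NdLN. Over all tested genes, 31.9% rose and 30.1% fell against TdLN, and 34% and 32.5% against NdLN. Itgam, which rose, averaged 0.0466 CPM in TdLN libraries, and Cr2, which fell, averaged 0.271 CPM in Tumor libraries. Each passed the filter only through libraries where it was high and had to differ, so nothing is read from these counts.

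Between the node groups 1 of the 31 other genes passed in edgeR, where 3.49% of all tested genes did. Colec11, which encodes a collectin that starts the lectin route, fell to 13.3 ± 3.19 CPM in TdLN, against 29.1 ± 4.41 CPM in NdLN libraries (-1.13 ± 0.22, adjusted p = 0.00968), and no TdLN library reached an NdLN library. It was lower still in the tumor, at 1.46 ± 0.450 CPM.

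**Figure D5:**
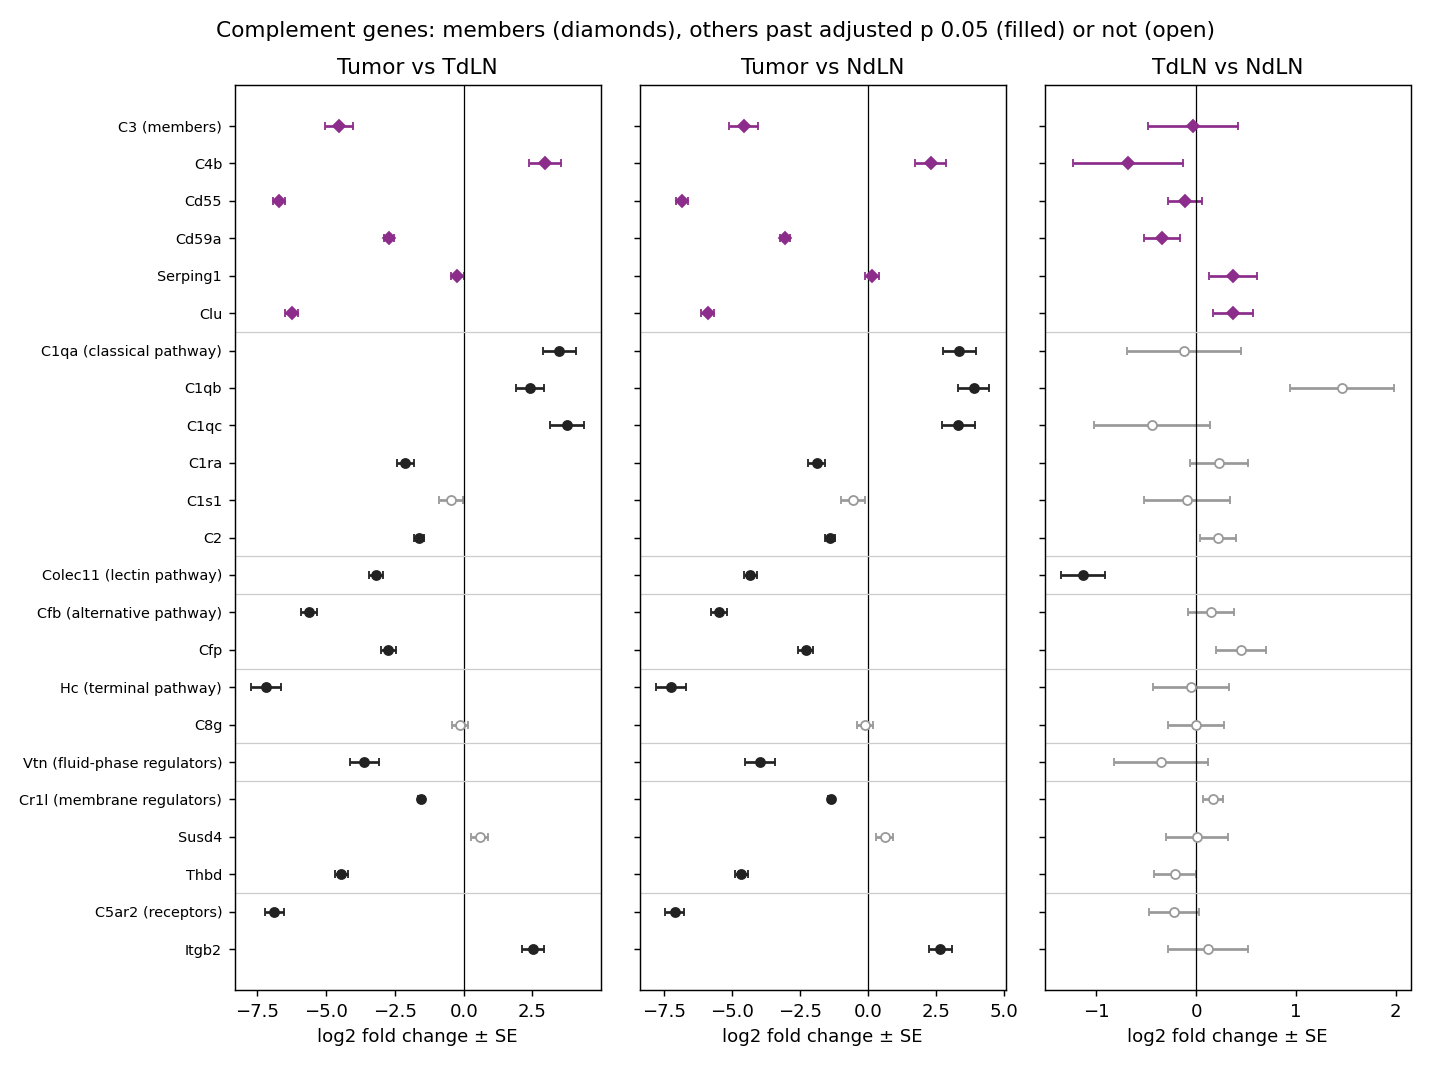
Log2 fold changes ± SE from the edgeR fit for the 6 members (diamonds) and for other complement genes, by role, with a panel for each comparison. Each gene has a group mean of at least 5 CPM. Other genes are filled where the adjusted p was under 0.05, and diamonds are filled throughout, whatever their p. The tumor panels reach from -7.23 for Hc, which is near the floor in Tumor libraries, to 3.87 for C1qb, both against NdLN. In the panel of TdLN against NdLN, Colec11, at -1.13, is the filled point among the other genes.

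For each member the genes with the most similar profile were sought among 9169 protein-coding genes, by the root mean square difference of centred log2 CPM over the 15 libraries. Cd55 was nearest to Mmp9 (0.35), Vcam1 (0.39) and Chrnb4 (0.42), and Clu to Csf2rb (0.30), Tspan7 (0.30) and Chrnb4 (0.31). Tspan7 was at a mean of 23.1 CPM in Tumor, 1793 CPM in TdLN and 1390 CPM in NdLN libraries. Nearest to C3 were Csf1 (0.37), Fcho1 (0.46) and Slc22a4 (0.52), and genes near Cd59a were Ctsf (0.23) and Mustn1 (0.25). C4b had the least close neighbours, Pi16 (0.61), Col5a2 (0.62) and Col5a1 (0.68), of which the last 2 encode collagen chains. Serping1 was nearest to Pip5k1a (0.28), Taf9b (0.29) and Rmdn3 (0.29).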

How the data were processed

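Per the labels' protocols, sorted cells gave 1 ng of RNA per library for reverse transcription and amplification with a low-input kit, 200 pg of cDNA entered a transposase-based preparation, and sequencing, in pools of 10, gave single-end reads 50 bases long. The authors deposited raw counts per gene, not normalized. The tools named per the submitters' processing notes are featureCounts 1.4.6, STAR 2.4 and CASAVA 1.8.2, with the build GRCm38. Annotation release and strand setting: not given in the sources used here. Without strand marks from the kit, overlapping antisense genes, such as Gm16083 at Cd55, cannot be told apart. Pools are not recorded, so their effect was not tested.

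IDs were matched to GENCODE M21 of the same build (21628 of 21839), which gave symbols, positions and exon lengths. Tests between groups came from edgeR 4.0.16 under R 4.3.3 (robust quasi-likelihood test, TMM factors, filterByExpr) in 1 fit of all 15 libraries, with Benjamini-Hochberg adjustment over 13887 genes and a threshold of 0.05. The SE of an edgeR log2 fold change was derived as its absolute value divided by the square root of the quasi-likelihood F statistic. CPM values use library totals and TMM factors. Log2 CPM for profiles had a prior count of 2. Neighbouring profiles were sought among genes averaging 3 or more in log2 CPM, and other complement genes were named at a group mean of at least 5 CPM. Some genes that these rules would name are not reported here. The fit was checked on simulated data with changes set in TdLN only and read for TdLN against NdLN, so it does not cover the Tumor comparisons. Alternatives were RLE and upper quartile factors, 2 other filters, DESeq2 1.42.0, fits of the compared groups only, a replicate block, sums with paralogs and each library left out. Library pairs of 1 group differed beyond sampling noise (lowest mean chi-square per gene 27.1). Because reads were amplified and carry no molecular identifiers, they are not separate molecules. The members and lists were chosen with earlier results of these data known.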

Additional observations from a re-analysis of the deposited data

Results flagged for a closer look

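In 18 groups of 5 libraries (6 genes in 3 groups), a single library stood apart from the other 4 by more than Dixon's 95% critical value of 0.710 in 2 cases, and chance flags about 1 group in 20. Tumor 5 had 330 CPM of C4b, where the next Tumor library had 107 CPM. Tumor 5 had 548 CPM of Serping1, where the next had 285 CPM. The same library had the highest fibroblast marker sum, 10325 CPM, and the highest pigment cell marker sum, 32481 CPM, whose part was not tested. Without it, the log2 fold change of Tumor against TdLN was 2.27 for C4b and -0.53 for Serping1.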

How the results depend on the processing

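All 312 log2 fold changes of members under other settings moved by less than the spread between libraries, and no called direction reversed. Without Tumor 5, 6 of 6 members passed in Tumor against TdLN, in place of 5, the added one being Serping1, and nothing is read from that count. With a filter of 10 CPM in 5 libraries, 14 other complement genes passed in Tumor against TdLN and 14 in Tumor against NdLN, since 16 were then tested. Between TdLN and NdLN, DESeq2 called 978 genes in place of 484 and 2 other complement genes in place of 1. The added one was Fcna, named after its value was seen. It had 0 CPM in every TdLN library and 0.128, 0.203, 0, 0 and 0.31 CPM in NdLN 1 to 5. Fcna passed the filter only through the Tumor libraries (mean 3.51 CPM), so nothing is read from its calls. A fit of those 2 groups alone also called 2, the second not being Fcna. Leaving out 1 library at a time gave 225 to 564 genes in that comparison (225 without TdLN 1, 258 without TdLN 2, 315 without TdLN 3, 245 without NdLN 2, 307 without NdLN 3, 277 without NdLN 4, 319 without NdLN 5) and 1 to 2 other complement genes, the second being Fcna without NdLN 3 or NdLN 4. The cause was not tested. Colec11 kept its call in every setting run. Same-numbered libraries correlated at -0.21 to 0.25 in their deviations from group means, so no pairing by number was seen. Such values cannot exclude that same-numbered libraries share a mouse, which stays unknown. With the replicate number as a block, 8381, 8995 and 400 genes passed in Tumor against TdLN, Tumor against NdLN and TdLN against NdLN, with 23, 22 and 1 other complement genes, of which Cfd, Csmd1 and C5ar1 lost a call. C4b could not be summed with C4a, so that alternative was not run. Depth limits genes near 1 CPM, such as Cd55b and Cd59b.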
